A study of Homo sapiens with 97 samples.

Results

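The transcripts described here belong to 34 human genes of sterol and fatty acid synthesis, out of 60675 gene identifiers counted in every deposited table. Membership was set by gene name, by a rule that used no measured value, but the list was chosen with earlier results of these data known. Of the members 33 carried the name in the deposited tables, and ACACA (ENSG00000278540) was named only by the GENCODE 29 annotation. By general knowledge of their protein products, 9 members encode soluble enzymes, 9 encode enzymes held at a membrane by an anchor or by 1 face (called anchored), and 16 encode proteins that cross the membrane several times (called spanning). All 34 passed the filter on low counts in every table.

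Messenger RNA was captured from HEK293T cells, a human embryonic kidney line, that stably carried a fusion of the peroxidase APEX2. In labelled cells biotin-phenol and hydrogen peroxide tagged RNA near the enzyme, and in unlabelled cells the peroxide was left out while the capture was the same. The constructs were ERM (endoplasmic reticulum membrane, facing the cytosol), OMM (outer mitochondrial membrane), KDEL (lumen of the endoplasmic reticulum), MITO (mitochondrial matrix), NLS (nucleus), NIK (nucleolus), LMA (nuclear lamina), NucPore (nuclear pore) and NES (cytosol), each with poly(A) RNA. Total RNA was also taken from MITO cells. OMM and NES cells were further treated with cycloheximide, which holds ribosomes on the message, puromycin, which releases the growing chain, or CCCP, which uncouples mitochondria. OMM and NES cells also received nocodazole, which dissolves microtubules, for 3, 6, 9 or 30 min or 2 h, with unlabelled libraries at 3 and 30 min. Nuclear and cytosol fractions of HEK293T cells, prepared without APEX2 labelling, completed the 97 libraries of 49 groups, with 2 libraries in each group compared. The labels call these biological replicates without saying what they shared. The p-values set each difference against a spread estimated over all groups of its table, and cover these libraries alone. Whether a construct line was 1 clone or a pool is not given in the sources used here. Doses and times of cycloheximide, puromycin and CCCP are not given there either.

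Cholesterol is made from acetyl-CoA. Soluble enzymes of the mevalonate pathway build isoprenoid units, and enzymes in the membrane of the endoplasmic reticulum then join them into squalene and turn squalene into sterol. Fatty acids begin in the same way with soluble enzymes, and membrane enzymes elongate, desaturate and activate them. When sterol is scarce, SCAP carries the membrane-bound precursors of SREBF1 and SREBF2 to the Golgi, where they are cleaved and go on to induce most of these genes, and INSIG1 and INSIG2 hold SCAP back. Messages of membrane proteins are in general translated by ribosomes bound to the endoplasmic reticulum, while messages of soluble cytosolic enzymes are read on free ribosomes.

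The 36 construct libraries held between 9.33 and 76.71 M counts each, where M is the usual mega prefix. Drug libraries held 22.75 to 55.76 M, those of nocodazole 15.47 to 33.97 M and the fractions 34.96 to 44.97 M. The total RNA libraries of MITO were shallower, with 5.89 and 7.88 M in labelled and 2.84 and 3.28 M in unlabelled ones. Of the genes that average 5 or more CPM (counts per mega of counts), no read at all was found for 5.02 percent in ERM labelled 1, 4.06 percent in OMM unlabelled 2 and 3.37 percent in NES unlabelled 1. Above a limit of 2 percent a library is called one of low complexity here. In the 18 unlabelled construct libraries the HEK293T markers VIM, NEFM, KRT18 and KRT8 had medians of 718, 66.9, 51.5 and 9.55 CPM, and KRT8 ranged from 0.034 to 44.1 CPM. The blood markers PTPRC and HBB and the liver marker ALB had medians of 0, with highest values of 5.89, 0 and 3.95 CPM. Levels below are CPM scaled by the TMM method (normalised CPM). Fold changes and differences are on the log2 scale and stand with ± their standard error, and a member was called when its p-value, adjusted by the Benjamini-Hochberg method over all genes tested with edgeR's quasi-likelihood test, was under 0.05. These are bulk libraries, so more tagged molecules per cell and more cells with tagged molecules cannot be told apart.

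Membrane proteins are recognised at the ribosome by stretches of hydrophobic residues, and hydrophobic residues have codons with T at the second base. The 19 codons of highest mean hydropathy are shown for 8 members whose results are described below, from the coding sequences of GENCODE 29 on GRCh38, with codons that have T at the second base in capitals. The first 4 are from transcripts that were higher at the ERM than in the cytosol.
SCD: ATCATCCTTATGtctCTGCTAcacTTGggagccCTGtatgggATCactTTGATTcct
INSIG1: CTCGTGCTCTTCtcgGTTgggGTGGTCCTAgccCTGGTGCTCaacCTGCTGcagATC
SC5D: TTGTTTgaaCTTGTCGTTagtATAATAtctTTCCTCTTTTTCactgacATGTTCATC
ACSL3: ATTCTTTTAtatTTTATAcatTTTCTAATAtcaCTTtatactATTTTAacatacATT
NSDHL: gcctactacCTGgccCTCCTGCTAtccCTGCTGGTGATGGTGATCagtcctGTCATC
HSD17B7: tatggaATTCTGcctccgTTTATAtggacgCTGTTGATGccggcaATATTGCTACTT
HMGCS1: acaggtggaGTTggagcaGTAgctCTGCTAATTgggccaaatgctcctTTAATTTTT
FDPS: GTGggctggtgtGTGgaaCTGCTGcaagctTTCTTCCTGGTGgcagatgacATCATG

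On GRCh38 the stretches lie in coding exons at chr10:100348262-100348318 (plus strand, SCD), chr7:155298550-155298606 (plus, INSIG1), chr11:121306388-121306444 (plus, SC5D), chr2:222908833-222908889 (plus, ACSL3) and chrX:152868892-152868948 (plus, NSDHL). That of HMGCS1 lies at chr5:43298016-43298072 on the minus strand. Those of HSD17B7 (between 162803482 and 162804269 of chromosome 1, plus) and FDPS (between 155312375 and 155317976 of chromosome 1, plus) run across a splice junction. The stretch of SCD has T at the second base in 11 of 19 codons, INSIG1 and SC5D in 14, ACSL3 in 12, NSDHL in 12, HSD17B7 in 11, HMGCS1 in 8 and FDPS in 10.

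ERM labelling raised the messages of membrane-spanning members. Against unlabelled ERM cells 12 of 34 members were higher and 1 was lower, where 12.9 percent of all 22680 genes tested were called (5.26 higher and 7.6 lower), and the median log2 fold change of the members was 0.61 against 0.00 over all genes. Of the spanning members 9 of 16 rose and none fell (edgeR, median 1.17). Among anchored members SQLE and ACSL3 rose (2 of 9, median 0.44), and of the soluble members ACACA rose and FDPS fell (9 tested, median -0.13). The calls of SREBF1 and MSMO1 were the weak ones: MSMO1 lost its call without any 1 of the 4 ERM libraries, and SREBF1 (adjusted p = 0.0148 by edgeR) lost it without ERM labelled 1, unlabelled 1 or unlabelled 2. The other 11 calls held without each library.

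The direct test of ERM labelling against NES labelling compared the labelled over unlabelled fold change of each message between the 2 constructs. A difference can come from a rise at the ERM, a fall in NES or both. There 9 members were higher and 1 was lower, where 3.84 percent of all genes were called (2.15 higher and 1.69 lower). All 16 spanning members lay above 0, with 7 called and a median of 1.26, and the 9 anchored ones had 2 called and a median of 0.33. Soluble members had 0 higher and 1 lower and a median of -1.10, against -0.45 for all genes tested. The spanning median exceeded the soluble median by 2.37, and by 1.98 to 2.73 without single libraries. ERM labelled 1 and NES unlabelled 1, both of low complexity, enter this comparison, and without such libraries 12 members were higher and 0 lower.

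**Figure D1:**
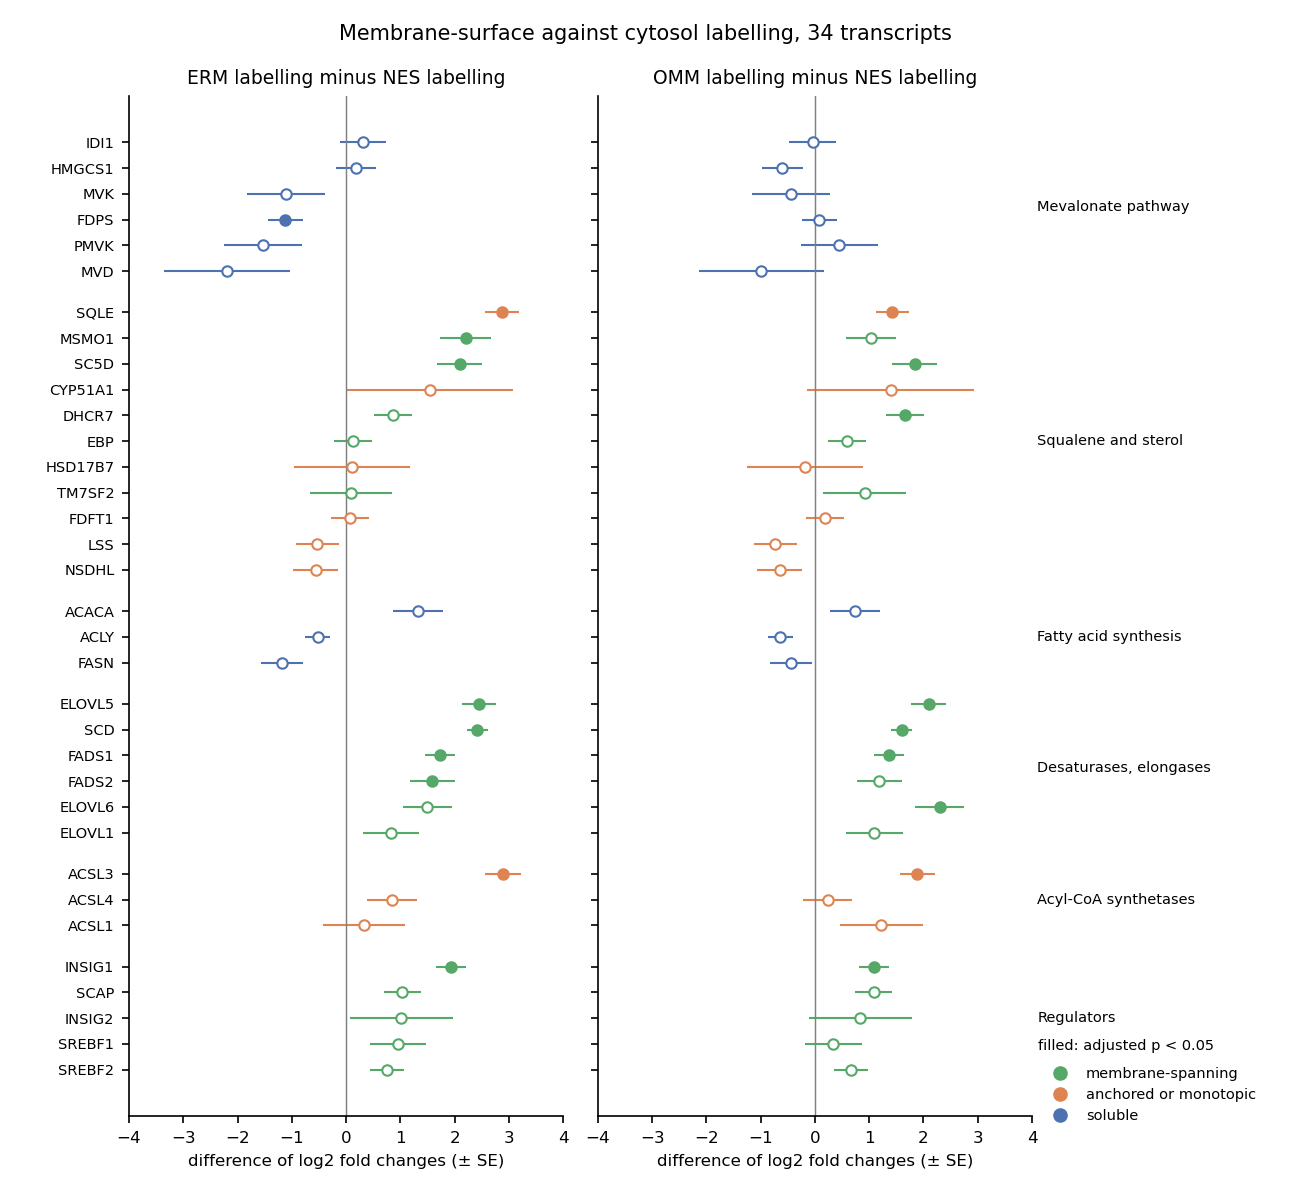
Difference of log2 fold changes (x axis, ± SE) for each of the 34 transcripts, ERM labelling minus NES labelling on the left and OMM labelling minus NES labelling on the right, grouped by role and coloured by topology; filled points were called (adjusted p under 0.05). All 16 spanning members lie right of 0 in both panels, and 10 and 9 points are filled.

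The desaturases and elongases, all spanning, were the group with the most calls: 4 of 6 were higher at the ERM than in the cytosol, with a median of 1.66. SCD (chromosome 10, 100347124 to 100364834, plus strand) introduces the first double bond into saturated fatty acids. It had 4643 and 4326 normalised CPM in ERM labelled, against 683 and 642 in ERM unlabelled libraries. In the cytosol it had 944 and 999 normalised CPM in NES labelled, against 831 and 702 in NES unlabelled libraries. Both ERM labelled libraries were thus far above the other 6, and the difference was 2.42 ± 0.19 (edgeR, adjusted p = 7.19e-10). ELOVL5, which lengthens polyunsaturated fatty acids, had 388 and 439 normalised CPM in ERM labelled, against 166 and 133 in ERM unlabelled libraries. Its NES labelled libraries had 108 and 98.0 normalised CPM, against 232 and 174 in NES unlabelled ones. ELOVL5 was thus above its control at the ERM and below its control in the cytosol, and both contrasts were called (1.47 ± 0.23 at the ERM and -0.98 ± 0.22 in NES, with a difference of 2.45 ± 0.32). FADS1, a desaturase of polyunsaturated fatty acids, had 451 and 482 normalised CPM in ERM labelled, against 130 and 115 in ERM unlabelled libraries. Its NES labelled libraries had 143 and 151 normalised CPM, against 142 and 114 in NES unlabelled ones, and the difference was 1.73 ± 0.27. FADS2 (1.59 ± 0.41), the desaturase that acts before FADS1, was called but lost its call without 5 single libraries (ERM labelled 1, ERM unlabelled 2, NES labelled 1, NES labelled 2 and NES unlabelled 2). FADS1 and FADS2 overlap on opposite strands of chromosome 11, and whether the counting used strand is not given in the sources used here, so their reads may be partly exchanged. ELOVL6 (1.49 ± 0.45), which extends palmitate, was not called. ELOVL1, an elongase of very long chains, had 46.4 and 52.1 normalised CPM in ERM labelled, against 50.3 and 45.5 in ERM unlabelled libraries. In NES labelled libraries ELOVL1 had 36.7 and 30.8 normalised CPM, against 67.4 and 49.4 in NES unlabelled ones, and its difference of 0.83 ± 0.52 was not called.

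**Figure D2:**
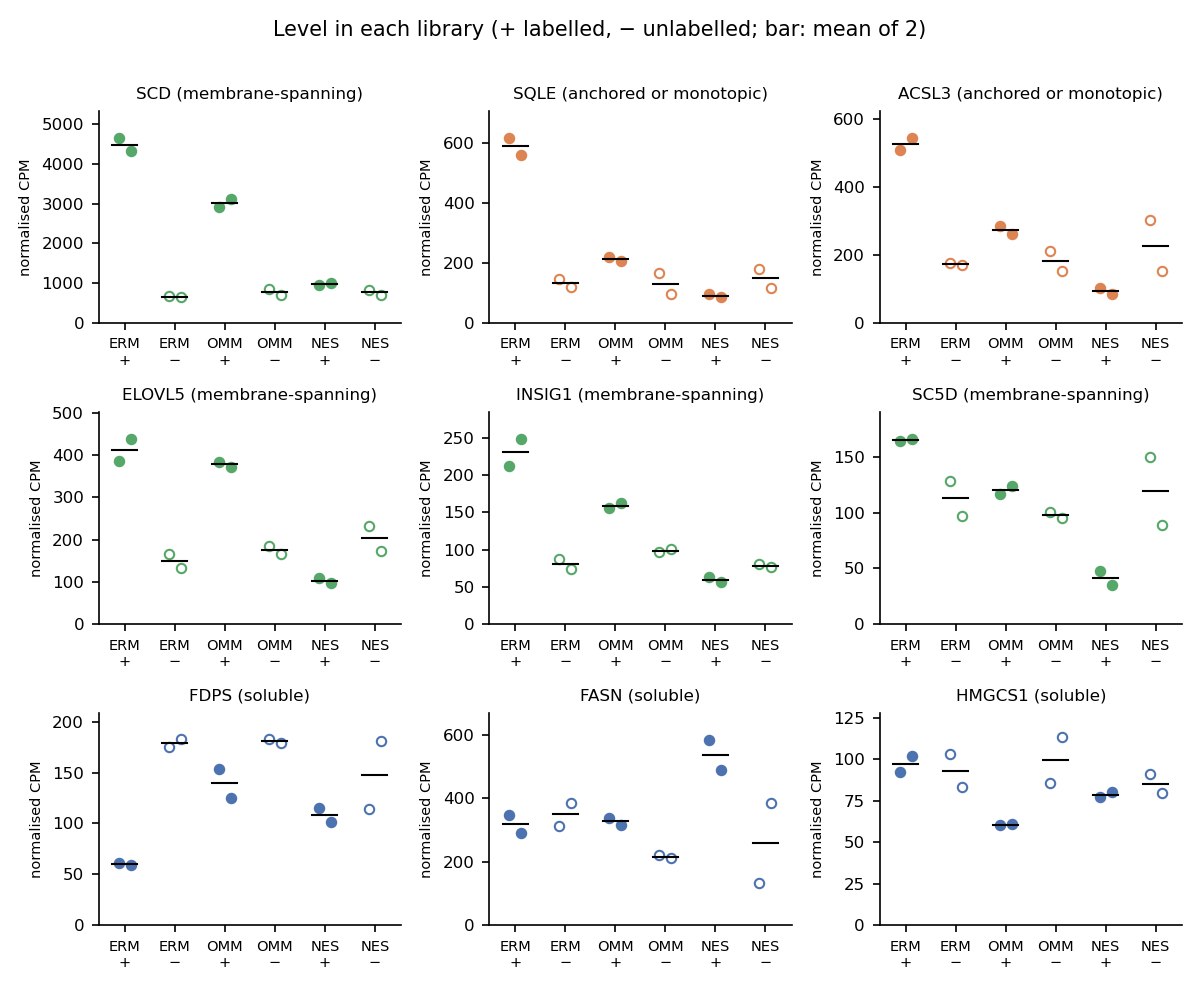
Normalised CPM (y axis, from 0) in each library of the ERM, OMM and NES constructs, filled for labelled and open for unlabelled, with a bar at the mean of 2, for 9 transcripts. SCD, SQLE, ACSL3, ELOVL5, INSIG1 and SC5D have their highest libraries among the ERM labelled ones, and FDPS has its 2 lowest there.

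In the squalene and sterol steps the members split. SQLE (chromosome 8, 124998497 to 125022283, plus strand), the squalene epoxidase, is anchored and had 616.5 and 562 normalised CPM in ERM labelled, against 147 and 119 in ERM unlabelled libraries. Its NES labelled libraries had 95.1 and 84.9 normalised CPM, against 179 and 118 in NES unlabelled ones. SQLE was higher at the ERM than in the cytosol by 2.87 ± 0.31 (edgeR, adjusted p = 2.48e-07), and the ERM labelled libraries lay above all the others. SC5D, the lathosterol oxidase, had 165 and 167 normalised CPM in ERM labelled, against 128 and 97.4 in ERM unlabelled libraries. Its NES labelled libraries had 47.2 and 35.3 normalised CPM, against 150 and 89.3 in NES unlabelled ones. The difference of 2.09 ± 0.42 for SC5D thus came with a called fall in NES (-1.54 ± 0.30) and a value at the ERM that was not called (0.55 ± 0.29). MSMO1, an oxidase that removes methyl groups from sterols, had 83.5 and 95.4 normalised CPM in ERM labelled, against 41.5 and 45.0 in ERM unlabelled libraries. In NES labelled libraries MSMO1 had 21.8 and 18.97 normalised CPM, against 47.1 and 44.0 in NES unlabelled ones. MSMO1 was therefore above its control at one place and below it at the other (1.05 ± 0.33, -1.16 ± 0.33, with a difference of 2.21 ± 0.47 that held without each of 8 libraries).

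The other 8 sterol members were not called between ERM and NES. DHCR7 (0.87 ± 0.35), the last enzyme of the route to cholesterol, and CYP51A1 (1.54 ± 1.54), the lanosterol demethylase, had positive values. TM7SF2 (0.09 ± 0.76), a sterol reductase, and EBP (0.13 ± 0.34), a sterol isomerase, both spanning, lay near 0. FDFT1 (0.07 ± 0.36), the squalene synthase, also lay near 0, and LSS (-0.53 ± 0.40), the lanosterol synthase, and NSDHL (-0.56 ± 0.41), a dehydrogenase of sterol demethylation, lay below. HSD17B7, the ketoreductase of that demethylation, had 9.89 and 16.9 normalised CPM in ERM labelled, against 15.0 and 16.1 in ERM unlabelled libraries. It had 12.4 and 11.04 normalised CPM in NES labelled, against 5.91 and 23.4 in NES unlabelled libraries, so its groups overlapped and its difference was 0.11 ± 1.07. HSD17B7 has a near-identical pseudogene, to which some of its reads could have been counted.

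The mevalonate enzymes, all soluble, had 0 higher, 1 lower and a median of -1.11. FDPS (chromosome 1, 155308748 to 155320666, plus strand), which makes farnesyl diphosphate, had 61.4 and 59.4 normalised CPM in ERM labelled, against 176 and 183 in ERM unlabelled libraries. Its NES labelled libraries had 115 and 101 normalised CPM, against 114 and 181 in NES unlabelled ones. FDPS fell at the ERM (-1.57 ± 0.23), while its difference from NES (-1.12 ± 0.32, edgeR, adjusted p = 0.0413) lost its call in 7 of 8 runs without a library, all but that without NES unlabelled 2, and without the libraries of low complexity (edgeR, adjusted p = 0.249). PMVK, the phosphomevalonate kinase, had 3.71 and 20.6 normalised CPM in ERM labelled, against 22.9 and 33.1 in ERM unlabelled libraries. PMVK had 33.0 and 33.0 normalised CPM in NES labelled, against 22.2 and 30.4 in NES unlabelled libraries, and the difference of -1.53 ± 0.72 was not called. MVD, which decarboxylates mevalonate diphosphate, had 8.22 and 11.8 normalised CPM in ERM labelled, against 16.6 and 25.8 in ERM unlabelled libraries. MVD had 36.5 and 35.0 normalised CPM in NES labelled, against 4.41 and 28.6 in NES unlabelled libraries, and -2.19 ± 1.17 was not called either. The lowest PMVK value was thus that of ERM labelled 1 and the lowest MVD value that of NES unlabelled 1. HMGCS1, the synthase that precedes mevalonate, had 92.6 and 102 normalised CPM in ERM labelled, against 103 and 83.3 in ERM unlabelled libraries. HMGCS1 had 77.0 and 80.1 normalised CPM in NES labelled, against 91.1 and 79.5 in NES unlabelled libraries, and did not differ beyond the spread (0.18 ± 0.37). MVK (-1.10 ± 0.72), the mevalonate kinase, and IDI1 (0.31 ± 0.43), the isomerase, were not called.

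The soluble enzymes of fatty acid synthesis had no call between ERM and NES. FASN, which builds palmitate, had 348 and 292 normalised CPM in ERM labelled, against 314 and 386 in ERM unlabelled libraries. FASN had 586 and 489 normalised CPM in NES labelled, against 134 and 385 in NES unlabelled libraries, and its difference was -1.18 ± 0.39 (edgeR, adjusted p = 0.0942). FASN was the only member called higher in NES (1.05 ± 0.28), a call lost without NES labelled 1, NES labelled 2 or NES unlabelled 1. ACACA, which makes malonyl-CoA, had 399 and 323 normalised CPM in ERM labelled, against 110 and 126 in ERM unlabelled libraries. ACACA had 160 and 177 normalised CPM in NES labelled, against 166 and 110 in NES unlabelled libraries. It rose at the ERM (1.62 ± 0.33) although its product is a soluble enzyme, and its difference from NES was not called (1.33 ± 0.46). ACLY, which makes cytosolic acetyl-CoA, had 621 and 602 normalised CPM in ERM labelled, against 621 and 635 in ERM unlabelled libraries. ACLY had 806 and 876 normalised CPM in NES labelled, against 636 and 566 in NES unlabelled libraries, and its difference was -0.52 ± 0.23, not called.

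Among the acyl-CoA synthetases, which activate long-chain fatty acids, ACSL3 stood out. It had 509 and 543 normalised CPM in ERM labelled, against 177 and 170 in ERM unlabelled libraries. ACSL3 had 101 and 84.8 normalised CPM in NES labelled, against 301 and 153 in NES unlabelled libraries. The difference was 2.89 ± 0.33 (edgeR, adjusted p = 5.88e-07), and it held without each of the 8 libraries. ACSL4, which prefers arachidonic acid, had 115 and 107 normalised CPM in ERM labelled, against 66.7 and 52.3 in ERM unlabelled libraries. ACSL4 had 64.4 and 77.0 normalised CPM in NES labelled, against 86.4 and 49.9 in NES unlabelled libraries, and 0.85 ± 0.46 was not called. ACSL1 had 38.1 and 55.1 normalised CPM in ERM labelled, against 30.7 and 38.0 in ERM unlabelled libraries. ACSL1 had 40.3 and 35.9 normalised CPM in NES labelled, against 32.0 and 38.6 in NES unlabelled libraries, where the groups overlapped (0.33 ± 0.76).

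All 5 regulators lay above 0 between ERM and NES, with 1 call and a median of 1.02. INSIG1 had 213 and 249 normalised CPM in ERM labelled, against 87.1 and 73.1 in ERM unlabelled libraries. INSIG1 had 62.5 and 55.8 normalised CPM in NES labelled, against 80.2 and 75.8 in NES unlabelled libraries. The difference of 1.93 ± 0.28 for INSIG1 held without each library. SCAP had 298 and 261 normalised CPM in ERM labelled, against 104 and 122 in ERM unlabelled libraries. SCAP had 125.4 and 110.9 normalised CPM in NES labelled, against 73.0 and 123 in NES unlabelled libraries, and its rise at the ERM (1.30 ± 0.24) was called while the difference was not (1.03 ± 0.34). SREBF2 had 263 and 367 normalised CPM in ERM labelled, against 112 and 139 in ERM unlabelled libraries. SREBF2 had 182 and 159 normalised CPM in NES labelled, against 93.6 and 137 in NES unlabelled libraries. Like SCAP it rose at the ERM (1.33 ± 0.23) and had no called difference (0.76 ± 0.32). INSIG2 had 12.5 and 38.0 normalised CPM in ERM labelled, against 13.7 and 15.3 in ERM unlabelled libraries. INSIG2 had 15.4 and 16.1 normalised CPM in NES labelled, against 13.3 and 23.3 in NES unlabelled libraries, so its ERM labelled libraries differed more from each other than from the rest (1.02 ± 0.94). SREBF1 (0.96 ± 0.52) was not called.

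NES labelling itself had 1 member higher and 4 lower, where 3.88 percent of all genes were called (1.38 higher and 2.5 lower). The 4 that fell were the membrane members ACSL3 (-1.29 ± 0.23), SC5D (-1.54 ± 0.30), ELOVL5 (-0.98 ± 0.22) and MSMO1 (-1.16 ± 0.33). NES unlabelled 1 and 2 differ for several of them, as the values of ACSL3 and FASN above show, and NES unlabelled 1 is a library of low complexity. The count was 2 without NES labelled 1, 0 without NES labelled 2, 0 without NES unlabelled 1 and 9 without NES unlabelled 2.

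Coding sequence features ran with these differences in part. All 16 spanning members had at least 2 windows of 19 codons with a mean hydropathy of 1.6 or more, where 19.5 percent of 19523 coding genes had as many. The class was set by crossing the membrane several times, so these windows largely follow from the class and are no separate result. Of the anchored members 7 of 9 had at least 1 such window, and of the soluble members 3 of 9 (MVK, ACACA and FASN), where 39.7 percent of all coding genes had 1 or more. Among anchored members the window began near the start of the coding sequence in SQLE (codon 20), CYP51A1 (codon 2), ACSL3 (codon 18) and ACSL4 (codon 1). Their ERM minus NES differences were 2.87, 1.54, 2.89 and 0.85, of which only those of SQLE and ACSL3 were called. The standard error of CYP51A1 was as large as its value. The window began late in FDFT1 (codon 285 of 417), NSDHL (codon 294 of 373) and HSD17B7 (codon 232 of 341), as in the stretches of NSDHL and HSD17B7 printed above, with differences of 0.07, -0.56 and 0.11. LSS and ACSL1 had no window, with differences of -0.53 and 0.33. The precursors of SREBF1 and SREBF2 have their first window at codons 488 and 472, with 659 and 669 codons after it. TM7SF2 and EBP go the other way, since their windows begin at codons 13 and 30 while their differences lay near 0. Across the 34 genes, which are not independent replicates and share all libraries, the number of windows and the ERM minus NES difference had a Spearman rho of 0.543 and a Pearson r of 0.402, given as a description.

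**Figure D3:**
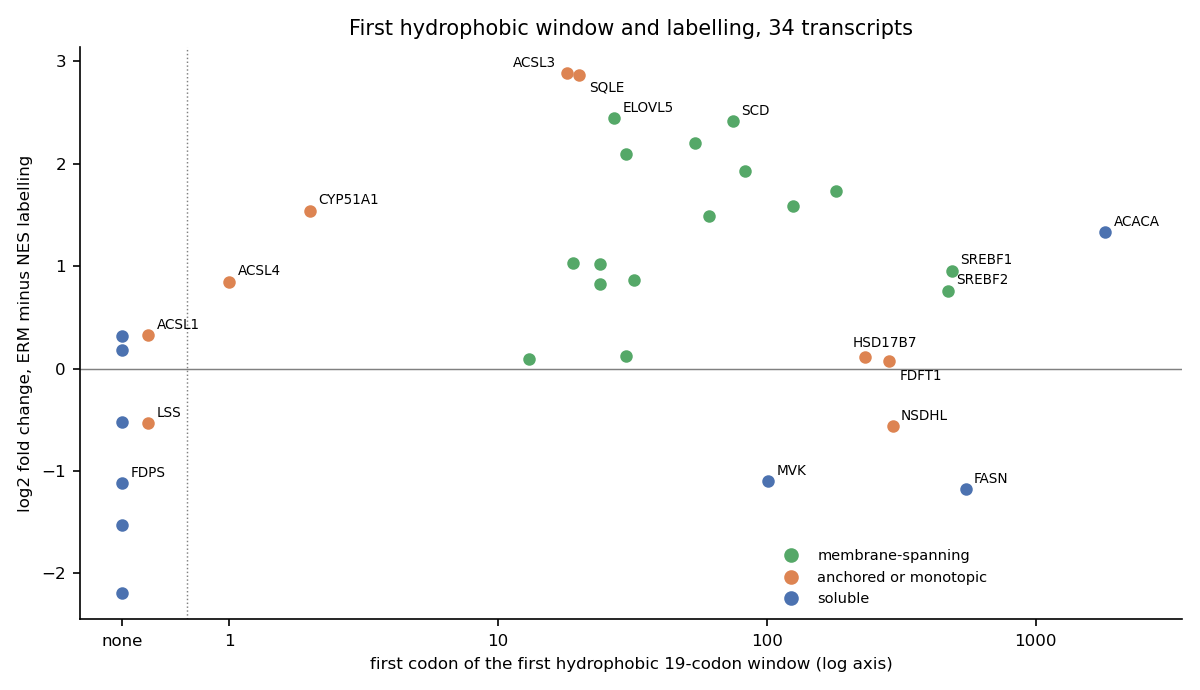
First codon of the first hydrophobic window of 19 codons (x axis, log scale, with members lacking a window at the left) against the ERM minus NES difference of log2 fold changes (y axis), coloured by topology, for 34 transcripts. SQLE and ACSL3, with windows from codons 20 and 18, lie highest, and FDFT1, HSD17B7 and NSDHL, with late windows, lie near or below 0. ACACA, with a window from codon 1814, lies at 1.33, and TM7SF2 and EBP, with early windows, lie near 0.

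OMM labelling also raised spanning members. Against unlabelled OMM cells 9 of 34 members were higher and 0 lower, all of them spanning, where 4.99 percent of all genes were called (3 higher and 1.98 lower). The spanning median was 0.90, the anchored 0.28, the soluble 0.13 and that of all genes 0.06. SCD had 2903 and 3114 normalised CPM in OMM labelled, against 860 and 709 in OMM unlabelled libraries (1.94 ± 0.14). DHCR7 had 258 and 268 normalised CPM in OMM labelled, against 112 and 80.1 in OMM unlabelled libraries (1.45 ± 0.25). ELOVL6 had 143 and 119 normalised CPM in OMM labelled, against 46.1 and 35.6 in OMM unlabelled libraries (1.68 ± 0.33), and lost its call without OMM unlabelled 2. The labelled libraries of these 3 genes lay above the unlabelled ones with no overlap. FADS1, FADS2, ELOVL5, SCAP, SREBF2 and INSIG1 were also called, the last only with all 4 libraries present. The spanning median exceeded the soluble one by 0.776, by 0.413 without OMM unlabelled 1 and by 1.34 without OMM unlabelled 2, the library of low complexity.

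Against NES labelling, OMM labelling had 9 members higher and 0 lower, where 1.72 percent of all genes were called (1.58 higher and 0.141 lower). They were SCD (1.597 ± 0.189), ELOVL5 (2.09 ± 0.32), ELOVL6 (2.30 ± 0.46) and FADS1 (1.37 ± 0.27) of the desaturases and elongases, and DHCR7 (1.66 ± 0.35), SC5D (1.84 ± 0.42) and SQLE (1.42 ± 0.31) of the sterol steps. ACSL3 (1.88 ± 0.32) and INSIG1 (1.09 ± 0.27) completed them. All 16 spanning members again lay above 0, with a median of 1.09, against 0.23 for anchored and -0.44 for soluble members and 0.00 for all genes. Calls numbered 5 without NES labelled 2, 5 without OMM unlabelled 2 and 4 without the libraries of low complexity, and the last lost SQLE, SC5D, FADS1, ELOVL6, INSIG1 and ACSL3. NES labelling is shared by this comparison and by that of ERM with NES, so agreement between them is not independent.

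Between the membranes, ERM labelling exceeded OMM labelling for 2 members and fell short for 1, where 1.78 percent of all genes were called (0.181 higher and 1.6 lower). SQLE was higher at the ERM by 1.45 ± 0.30 and SCD by 0.82 ± 0.19, and FDPS was lower by -1.20 ± 0.32. FDPS lost its call in each of the 8 runs without a library (edgeR, adjusted p up to 0.236), SCD in 4 (without ERM labelled 1, OMM labelled 1, ERM unlabelled 2 or OMM unlabelled 1) and SQLE in 1 (without ERM unlabelled 2). Counts were 1 without ERM labelled 1, 1 without OMM labelled 1 and 0 without ERM unlabelled 2, and with RLE size factors 2 were higher and 0 lower. The spanning median was 0.22, the anchored 0.20 and the soluble -0.67, against -0.28 for all genes. The other 31 members were not called in either direction.

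At the other places few members moved. KDEL labelling, inside the lumen, called 0 members by edgeR and by DESeq2, with 0 at an unadjusted p under 0.05, where 0 percent of all genes were called. There SCD had 896 and 941 normalised CPM in KDEL labelled, against 1087 and 1007 in KDEL unlabelled libraries. NucPore labelling called 0 members by edgeR and 2 by DESeq2, with 4 at an unadjusted p under 0.05, where edgeR called 0 percent of all genes. NLS labelling called LSS higher (1.12 ± 0.28) and ACLY lower (-0.65 ± 0.16), where 5.2 percent of genes were called (2.78 higher and 2.42 lower). LSS had 204 and 210 normalised CPM in NLS labelled, against 94.6 and 95.3 in NLS unlabelled libraries, without overlap, but its call was lost without any 1 of those 4. NIK labelling called ELOVL6 higher (1.13 ± 0.32) and SREBF2 (-1.22 ± 0.23) and PMVK (-2.02 ± 0.53) lower, where 5.24 percent of genes were called (1.28 higher and 3.96 lower). Both NIK labelled libraries lacked 6.06 and 2.94 percent of expressed genes, and CYP51A1 had no count in NIK labelled 2. SREBF2 held without each of the 4 NIK libraries, ELOVL6 lost its call without 3 of them (labelled 1, unlabelled 1 or unlabelled 2) and PMVK without 2 (labelled 1 or unlabelled 2). The NIK count was 8 without labelled 2 and 1 without unlabelled 2. LMA labelling called ELOVL6 higher (1.31 ± 0.32) and ACLY (-0.77 ± 0.16), DHCR7 (-1.001 ± 0.246), EBP (-0.87 ± 0.24) and FDFT1 (-0.80 ± 0.25) lower, where 7.68 percent of genes were called (3.67 higher and 4 lower). No LMA call held without each of its 4 libraries, and the count was 1 without labelled 1, 3 without labelled 2 and 3 without unlabelled 2. For NLS it was 1 without labelled 1 or unlabelled 2 and 0 without labelled 2 or unlabelled 1, and for NucPore 1 without labelled 2.

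MITO labelling raised the messages of ACLY and NSDHL, where 1.05 percent of genes were called (0.873 higher and 0.181 lower). NSDHL had 318 and 411.5 normalised CPM in MITO labelled, against 120 and 98.5 in MITO unlabelled libraries (1.74 ± 0.30). ACLY had 1885 and 1608 normalised CPM in MITO labelled, against 731 and 667 in MITO unlabelled libraries (1.32 ± 0.16). Neither gene's groups overlapped, and both calls held without each library. Transcripts of the mitochondrial genome took 45.6 and 58.8 percent of MITO labelled, against 8.48 and 5.03 percent of MITO unlabelled counts, and their part in these results was not tested. In total RNA of MITO cells NSDHL was called again, where 0.63 percent of genes were called (0.617 higher and 0.0134 lower). It had 103 and 87.2 normalised CPM in labelled, against 34.2 and 24.8 in unlabelled libraries (1.69 ± 0.29). This call was lost without labelled 1, unlabelled 1 or unlabelled 2, and labelled 1 is a library of low complexity. The count in total RNA was 5 without labelled 2. ACLY was not called there, with 1104 and 660 normalised CPM in labelled, against 357 and 376 in unlabelled libraries. The poly(A) and total RNA libraries come from the same construct.

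Cycloheximide gave the widest separation of membrane and soluble members at the OMM. With the drug, OMM labelling called 16 members higher and 3 lower, where 17.7 percent of genes were called (12.4 higher and 5.35 lower). Spanning members had 11 of 16 higher (median 1.83) and anchored ones 3 of 9 higher (median 0.87), against a median of 0.40 over all genes. Of the soluble members MVD and ACACA rose and ACLY, FASN and MVK fell (median -0.60). SCD had 5167 and 5387 normalised CPM in labelled, against 1145 and 1168 in unlabelled libraries (2.19 ± 0.14). SREBF2 had 528 and 512 normalised CPM in labelled, against 108 and 104 in unlabelled libraries (2.30 ± 0.22). SCAP had 602 and 573 normalised CPM in labelled, against 141.5 and 151 in unlabelled libraries (2.01 ± 0.20). In each of these 3 genes both labelled libraries were several-fold above both unlabelled ones. The OMM cycloheximide unlabelled libraries lacked 3.08 and 7.75 percent of expressed genes. FADS2 (2.73 ± 0.74) and TM7SF2 (2.32 ± 0.59) rest on them, since unlabelled 2 had 3.56 and 2.43 normalised CPM, against 96.2 and 14.3 in unlabelled 1. Left-out libraries moved FADS2 between 1.78 and 6.54 and TM7SF2 between 1.550 and 4.104. With the NES cycloheximide unlabelled libraries as control, a choice made after seeing the data, the calls of MVK, MVD, TM7SF2, ACLY, FASN, FADS2 and INSIG1 were lost, and MVD changed to -0.36 from 1.56.

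NES labelling in cycloheximide had 6 members higher and 7 lower, where 15.7 percent of genes were called (7.91 higher and 7.77 lower), and medians of -0.38 in spanning and -0.13 in soluble members. SCD had 2125 and 1447 normalised CPM in labelled, against 785 and 980 in unlabelled libraries (1.02 ± 0.14). ACLY had 926 and 927 normalised CPM in labelled, against 516 and 574 in unlabelled libraries (0.77 ± 0.12). ACACA had 225 and 195 normalised CPM in labelled, against 107 and 58.0 in unlabelled libraries (1.34 ± 0.25). The other 3 that rose were ACSL1 (1.53 ± 0.29), FADS1 (0.79 ± 0.21) and HMGCS1 (0.52 ± 0.16). The 7 that fell were FDPS (-1.25 ± 0.25), EBP (-1.36 ± 0.29), SC5D (-1.03 ± 0.24), HSD17B7 (-2.01 ± 0.49), IDI1 (-0.89 ± 0.25), DHCR7 (-0.67 ± 0.22) and ACSL3 (-0.69 ± 0.23). Calls of SCD, ACLY, ACACA, ACSL1 and FDPS held without each of the 4 libraries.

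Set against NES, OMM labelling in cycloheximide had 15 members higher and 2 lower, where 13.5 percent of genes were called (9.38 higher and 4.16 lower). All 16 spanning members lay above 0 with 11 called (median 1.82), against a median of 0.27 in anchored members, -0.27 in soluble members and 0.27 over all genes. SCAP led by p-value with 2.49 ± 0.28, from the values of OMM given above and 136 and 93.9 normalised CPM in NES labelled, against 154 and 168 in NES unlabelled libraries. DHCR7 had 358 and 352 normalised CPM in OMM labelled, against 112 and 65.0 in OMM unlabelled libraries. DHCR7 had 75.6 and 55.6 normalised CPM in NES labelled, against 93.6 and 116 in NES unlabelled libraries, so it rose at the membrane and fell in the cytosol (2.68 ± 0.31). ACLY had 512 and 522 normalised CPM in OMM labelled, against 871 and 695 in OMM unlabelled libraries, the opposite of its rise in NES (-1.37 ± 0.16). FASN (-1.35 ± 0.27) was the other member that was lower at the OMM. Of the 17 calls 13 held without each of the 8 libraries. FADS1, MVD, SC5D and TM7SF2 lost theirs without 5, 2, 1 and 5 single libraries.

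**Figure D4:**
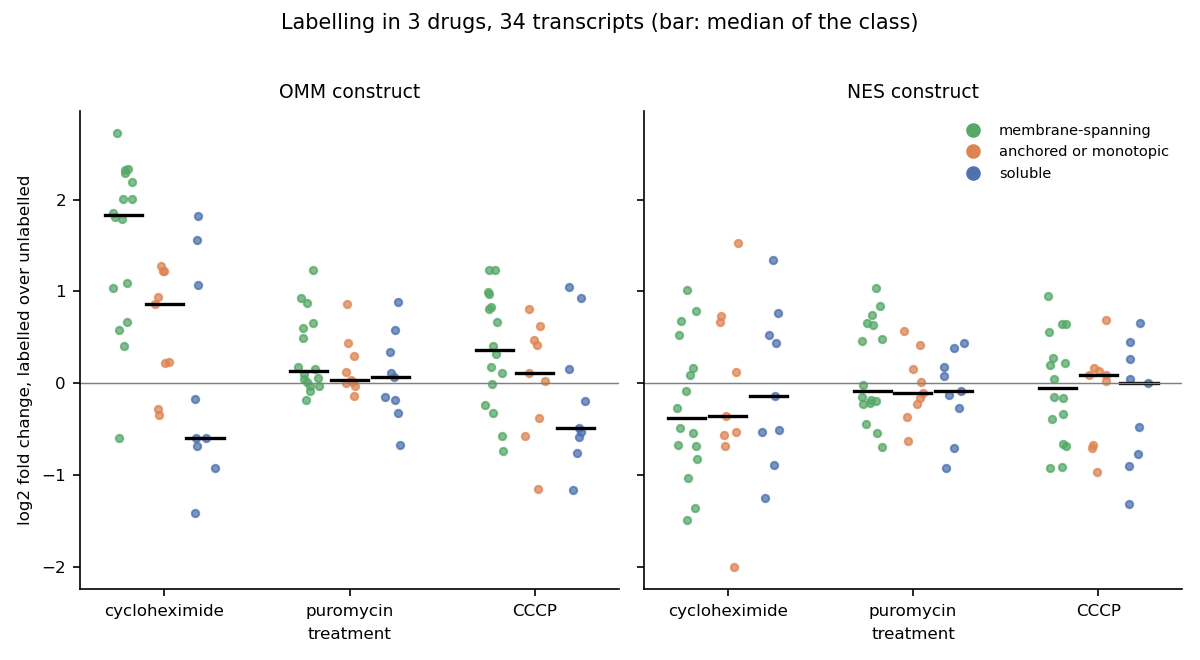
Log2 fold change of labelled over unlabelled libraries (y axis) of 34 transcripts with cycloheximide, puromycin or CCCP, for the OMM construct on the left and NES on the right, coloured by topology with a bar at the class median. With cycloheximide at the OMM the spanning median is 1.83 and the soluble median -0.60, and with puromycin they are 0.13 and 0.07.

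With puromycin that separation was small. OMM labelling in puromycin called 5 members higher and 0 lower, where 2.13 percent of genes were called (0.942 higher and 1.18 lower), and the medians were 0.13 in spanning, 0.03 in anchored and 0.07 in soluble members, against 0.08 over all genes. SREBF2 had 306 and 351 normalised CPM in labelled, against 151 and 128 in unlabelled libraries (1.23 ± 0.21). ACLY had 990.0 and 1068 normalised CPM in labelled, against 655.5 and 722.5 in unlabelled libraries (0.58 ± 0.12). SCD had 1414 and 1504 normalised CPM in labelled, against 902 and 943 in unlabelled libraries (0.66 ± 0.14). FASN (0.89 ± 0.19) and FADS1 (0.87 ± 0.21) were called as well, so soluble and spanning members were among the 5. The count was 0 when labelled 2 was left out and 1 when any other of the 4 libraries was. NES labelling in puromycin called SCD (0.74 ± 0.14), SREBF2 (0.84 ± 0.21) and ACLY (0.44 ± 0.12) higher and FDPS (-0.92 ± 0.25) lower, where 7.82 percent of genes were called (3.24 higher and 4.58 lower). SCD had 1910 and 1960 normalised CPM in NES labelled, against 1187 and 1131 in NES unlabelled libraries. SREBF2 had 213 and 243 normalised CPM in NES labelled, against 144 and 111 in NES unlabelled libraries, and ACLY had 947 and 960, against 690 and 714. The labelled libraries of all 3 lay above the unlabelled ones, and 1 call, SCD, held without each library; the count was 2 without labelled 1, 1 without labelled 2 and 1 without unlabelled 2. Between OMM and NES in puromycin 0 members were called by edgeR and by DESeq2, with 2 at an unadjusted p under 0.05, where 0.112 percent of genes were called (0.0979 higher and 0.014 lower), and 1 was called without NES puromycin unlabelled 1.

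The direct test of cycloheximide against puromycin at the OMM called 9 members higher and 2 lower, where 5.61 percent of genes were called (4.53 higher and 1.08 lower). Of the spanning members 7 of 16 were higher (median 1.34), of the anchored 2 of 9 (median 0.20) and of the soluble 0 of 9 higher and 2 lower (median -0.24), against 0.37 over all genes. SCD differed by 1.53 ± 0.19 from the values given for each drug above. ACLY differed by -1.18 ± 0.16, as its labelled libraries were below the unlabelled ones with cycloheximide and above them with puromycin. FASN had 356 and 325 normalised CPM in cycloheximide labelled, against 673 and 614 in cycloheximide unlabelled libraries. FASN had 1351 and 1397 normalised CPM in puromycin labelled, against 736 and 751 in puromycin unlabelled libraries, and differed by -1.81 ± 0.27. ACLY and FASN were thus called in opposite directions with the drugs, by calls that depended on the controls and on single libraries as given above. The remaining soluble fatty acid enzyme, ACACA, had 357 and 334 normalised CPM in cycloheximide labelled, against 192 and 138 in cycloheximide unlabelled libraries, and was called higher (1.07 ± 0.24). With puromycin ACACA had 0.34 ± 0.24, not called, and its difference between the drugs (0.73 ± 0.34) was not called. DHCR7 (1.96 ± 0.31), MSMO1 (2.42 ± 0.41), ELOVL5 (1.64 ± 0.29), SQLE (1.37 ± 0.25) and SCAP (1.40 ± 0.27) were also higher without loss of the call in any left-out library. INSIG1 (1.28 ± 0.27), ACSL3 (1.27 ± 0.32) and SREBF2 (1.06 ± 0.30) lost theirs without 1, 5 and 7 single libraries, and the count was 20 without OMM cycloheximide unlabelled 1. With labelled libraries alone, an alternative chosen after seeing the data, 19 members were called. At NES the same test called 0 members by edgeR and 2 by DESeq2, with 5 at an unadjusted p under 0.05, where 0.163 percent of genes were called (0.0326 higher and 0.131 lower). Without NES puromycin unlabelled 1 it called 1. Its medians were -0.49 in spanning and -0.18 in soluble members.

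With CCCP the spanning median at the OMM lay between those of the translation inhibitors. OMM labelling in CCCP had 7 members higher and 1 lower, where 6.84 percent of genes were called (3.27 higher and 3.57 lower), with medians of 0.36 in spanning, 0.11 in anchored and -0.49 in soluble members, against 0.14 over all genes. SCD had 2360 and 2402 normalised CPM in labelled, against 1001 and 1026 in unlabelled libraries (1.23 ± 0.14). SCAP had 306 and 236 normalised CPM in labelled, against 119 and 111 in unlabelled libraries (1.24 ± 0.20). FASN had 1558 and 1189 normalised CPM in labelled, against 753 and 691 in unlabelled libraries (0.93 ± 0.19). Labelled libraries of these 3 lay above the unlabelled ones, and the calls of SCD and SCAP held without each of the 4. ACACA (1.05 ± 0.24), FADS1 (0.83 ± 0.21), SREBF2 (0.81 ± 0.21) and ELOVL6 (0.97 ± 0.28) rose and IDI1 (-1.17 ± 0.25) fell, and the count was 3 without labelled 1, 4 without labelled 2 and 4 without unlabelled 1. NES labelling in CCCP called SCD (0.95 ± 0.14) and ACLY (0.45 ± 0.12) higher and FDPS (-1.32 ± 0.25) lower, where 8.36 percent of genes were called (3.28 higher and 5.08 lower). SCD had 2062 and 2002 normalised CPM in NES labelled, against 1060 and 1042 in NES unlabelled libraries. FDPS had 95.0 and 93.2 normalised CPM in NES labelled, against 220.5 and 248 in NES unlabelled libraries. ACLY had 1041 and 1010 normalised CPM in NES labelled, against 772 and 731 in NES unlabelled libraries, and lost its call without any 1 of the 4. OMM against NES in CCCP called 0 members by edgeR and 1 by DESeq2, with 5 at an unadjusted p under 0.05, where 0.00933 percent of genes were called (0.00933 higher and 0 lower). CCCP against puromycin at the OMM called 0 members by both tools, with 5 at an unadjusted p under 0.05, where 0 percent of genes were called.

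Drug and untreated OMM libraries were deposited in separate tables, so a drug effect and a difference between sets of libraries cannot be told apart. Cycloheximide against untreated called MSMO1 higher (2.43 ± 0.44) and FASN lower (-1.55 ± 0.39), where 1.86 percent of genes were called (1.73 higher and 0.127 lower). MSMO1 held without each of the 8 libraries, and FASN lost its call without 5 of them. The count was 9 without OMM cycloheximide unlabelled 1, 4 without OMM unlabelled 1, and 1 without OMM labelled 1, OMM labelled 2, OMM unlabelled 2, cycloheximide labelled 1 or cycloheximide labelled 2. Puromycin against untreated called SCD lower (-1.26 ± 0.19) and ACLY higher (0.75 ± 0.17), where 0.317 percent of genes were called (0.077 higher and 0.24 lower). With RLE size factors 0 were higher and 2 lower, and ACLY lost its call without 7 of 8 single libraries while SCD held. The count was 6 without OMM unlabelled 1 and 1 without any other library. RLE moved the median of all genes by -0.109 in this comparison. CCCP against untreated called 0 members by edgeR and 2 by DESeq2, with 6 at an unadjusted p under 0.05, where 0.14 percent of genes were called (0.0272 higher and 0.113 lower), and edgeR called 1 without OMM unlabelled 1.

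In nocodazole OMM labelling raised several spanning members, but the spanning median was not above that of all genes. Over the 5 times 10 members were higher and 3 lower, where 19.6 percent of genes were called (13.9 higher and 5.75 lower). The medians were 0.73 in spanning, 0.28 in anchored and -0.33 in soluble members, against 0.75 over all genes. The median of all genes depended on the controls: it was 0.119 with the NES unlabelled libraries as control, an alternative chosen after seeing the data, where the spanning median was 0.668. It was 1.27 without the 3 min unlabelled 1 and 1.85 without the 30 min unlabelled 1, where the spanning medians were 0.729 and 1.02. All 4 OMM nocodazole unlabelled libraries were of low complexity and lacked 11.5, 13.4, 2.98 and 16.3 percent of expressed genes, and their part in these values was not tested. SCD had 3498 and 4758 normalised CPM in labelled cells at 3 min, 3756 and 4006 at 6 min, 3472 and 3319 at 9 min, 2848 and 2896 at 30 min and 2723 and 2457 at 2 h. Its unlabelled libraries had 1304 and 1340 normalised CPM at 3 min and 924 and 795 at 30 min, so that every labelled library was above every unlabelled one (1.64 ± 0.09 over all times). SREBF2 had 216 to 412 normalised CPM over the 10 labelled, against 110 to 195.5 over the 4 unlabelled libraries (1.28 ± 0.13). ELOVL5 had 248 to 397 normalised CPM over the 10 labelled, against 111 to 146 over the 4 unlabelled libraries (1.23 ± 0.15). Neither gene's groups overlapped. DHCR7 (1.05 ± 0.15), FADS1 (0.80 ± 0.17), SCAP (1.33 ± 0.29) and ACACA (0.68 ± 0.17) rose and FDPS (-1.003 ± 0.189) fell, and these calls held without each of 14 libraries. FADS2 (1.81 ± 0.54), INSIG1 (0.59 ± 0.19) and LSS (0.65 ± 0.22) rose and IDI1 (-0.83 ± 0.19) and FDFT1 (-0.71 ± 0.18) fell, with calls lost without 2, 4, 9, 1 and 1 single libraries.

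NES labelling in nocodazole had 1 member higher and 5 lower, where 7.95 percent of genes were called (3.02 higher and 4.94 lower). SCD was higher (0.55 ± 0.09), with 1297 to 1975 normalised CPM over the 10 labelled, against 1072 to 1398 over the 4 unlabelled libraries, which overlapped. FDPS was lower (-0.995 ± 0.190), with 57.0 to 93.7 normalised CPM in labelled, against 79.6 to 182 in unlabelled libraries. EBP (-1.11 ± 0.29) had 35.21 to 61.98 normalised CPM in labelled, against 48.4 to 214 in unlabelled libraries, and its groups overlapped as well. DHCR7 (-0.52 ± 0.14), TM7SF2 (-1.597 ± 0.456) and IDI1 (-0.64 ± 0.19) also fell. Of 14 runs without a library, IDI1 lost its call in 12, TM7SF2 in 9, DHCR7 in 4 and EBP in 2. The count was 3 without the 3 min labelled 2, 2 without the 3 min unlabelled 2 and 3 without the 30 min unlabelled 2, and SCD and FDPS held throughout.

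Between OMM and NES in nocodazole 5 members were higher and 0 lower, where 7 percent of genes were called (6.18 higher and 0.816 lower), all of them spanning and all held without each library. They were SCD (1.09 ± 0.12), DHCR7 (1.58 ± 0.21), SREBF2 (1.06 ± 0.17), ELOVL5 (1.17 ± 0.19) and SCAP (1.57 ± 0.38). The spanning median was 1.13, the anchored 0.30 and the soluble -0.19, against 0.36 over all genes. Counts were 11, 10, 11 and 8 without OMM unlabelled 3 min 1, OMM unlabelled 3 min 2, OMM unlabelled 30 min 1 and NES unlabelled 30 min 1.

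**Figure D5:**
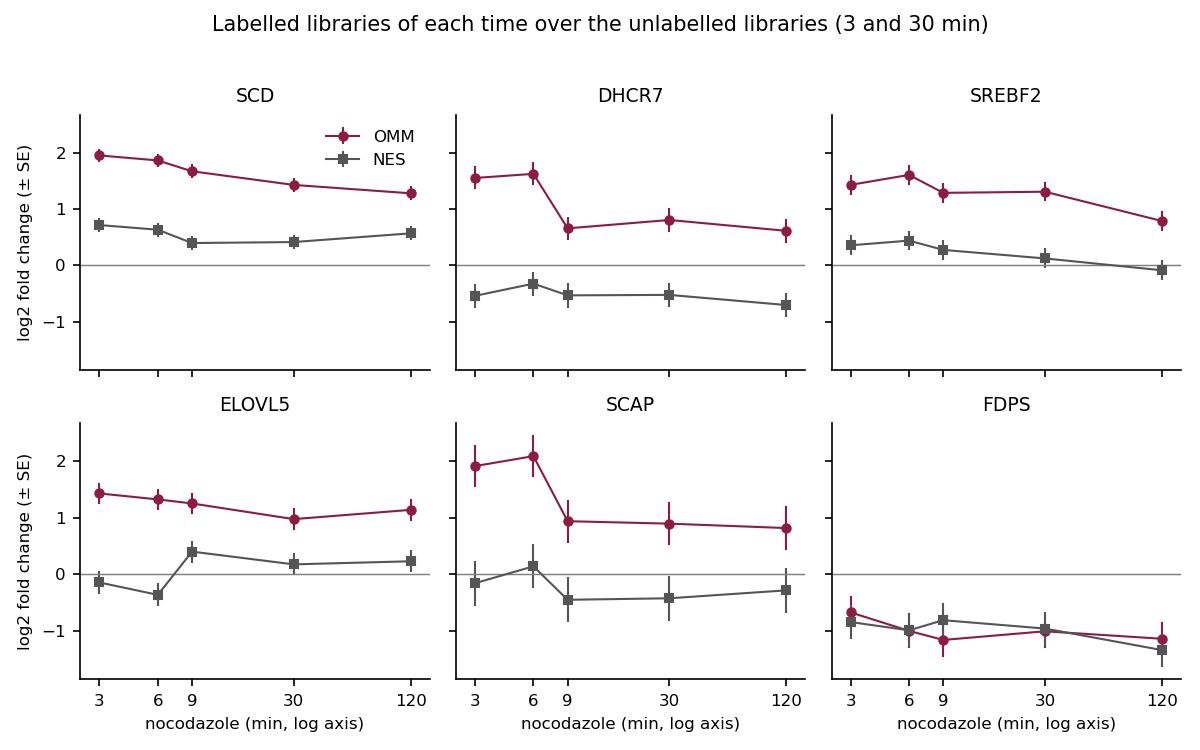
Log2 fold change (y axis, ± SE) of the labelled libraries of each nocodazole time (x axis, min, log scale) over the averaged 3 and 30 min unlabelled libraries, for OMM (circles) and NES (squares) and 6 transcripts. SCD at the OMM has 1.95 at 3 min and 1.28 at 120 min, and FDPS lies below 0 for both constructs at every time.

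Over time SCD at the OMM had log2 fold changes of 1.95, 1.86, 1.67, 1.43 and 1.28 (each ± 0.12) at 3, 6, 9, 30 and 120 min. The late times, 30 and 120 min, against the early ones gave -0.47 ± 0.10 (edgeR, adjusted p = 0.024), the 1 member called, where 0.331 percent of genes were called (0.051 higher and 0.28 lower). That call was lost in 9 of 10 runs without a library, all but that without OMM 3 min labelled 1, and without the libraries of low complexity (edgeR, adjusted p = 0.0857). DHCR7 had 1.55 ± 0.20 and 1.63 ± 0.20 at 3 and 6 min and 0.66 ± 0.21, 0.81 ± 0.21 and 0.61 ± 0.21 at 9, 30 and 120 min, and SCAP had 1.92 ± 0.38 and 2.09 ± 0.38, then 0.94 ± 0.38, 0.90 ± 0.38 and 0.82 ± 0.38. Their late against early differences were not called. At NES 0 members were called between late and early times by edgeR and by DESeq2, with 5 at an unadjusted p under 0.05, where 0.0255 percent of genes were called (0.0153 higher and 0.0102 lower). The late against early change of OMM set against that of NES called 0 members by both tools, with 3 at an unadjusted p under 0.05, where 0.0102 percent of genes were called (0 higher and 0.0102 lower).

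In fractionated cells the spanning members were recovered more in the nuclear than in the cytosol fraction. Of the 34 members 13 were higher and 4 lower in the nuclear fraction, where 62 percent of genes were called (34.2 higher and 27.8 lower). Spanning members had 11 of 16 higher and 0 lower (median 0.73), anchored ones 2 higher and 3 lower (median -0.37) and soluble ones 0 higher and 1 lower (median -0.20), against 0.11 over all genes. DHCR7 had 110 and 117.5 normalised CPM in the nuclear, against 37.0 and 42.0 in the cytosol fraction (1.52 ± 0.18). LSS had 101 and 130.5 normalised CPM in the nuclear, against 37.5 and 46.7 in the cytosol fraction (1.46 ± 0.20). SREBF1 had 30.9 and 45.0 normalised CPM in the nuclear, against 10.7 and 9.52 in the cytosol fraction (1.91 ± 0.27). None of the 3 overlapped between fractions. TM7SF2 (1.62 ± 0.27), SC5D (1.45 ± 0.25), FADS2 (1.32 ± 0.28), SCAP (1.12 ± 0.24), ACSL3 (0.92 ± 0.17), ELOVL5 (0.84 ± 0.19) and SCD (0.80 ± 0.17) were also higher, and FDFT1 (-1.25 ± 0.19) and HSD17B7 (-0.97 ± 0.25) lower, in every run without a library. EBP (0.67 ± 0.17), ELOVL1 (0.65 ± 0.20) and ELOVL6 (0.51 ± 0.21) were higher and IDI1 (-0.79 ± 0.19) and NSDHL (-0.49 ± 0.18) lower, with calls lost without 1, 2, 3, 1 and 3 of the 4 libraries. Which membranes the nuclear fraction held was not measured in these files.

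Of 46 other genes of both pathways, listed for their function, 44 were tested in the table of constructs. At the ERM 17 were higher and 2 lower, where 5.26 percent of all genes were called higher and 7.6 lower. Between ERM and NES 11 were higher and 1 lower (median 0.71, against -0.45 over all genes). There 2.15 percent of all genes were called higher and 1.69 lower. LBR (2.23 ± 0.24), a sterol reductase of the nuclear envelope, and HACD3 (1.88 ± 0.25), a dehydratase of fatty acid elongation, were among those called higher. Between OMM and NES 6 of the 44 were higher and 0 lower, where 1.58 percent of all genes were called higher and 0.141 lower. Between cycloheximide and puromycin at the OMM 12 were higher and 1 lower, where 4.53 percent of all genes were called higher and 1.08 lower.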

How the data were processed

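Per the labels' protocols, RNA was biotinylated by APEX2 in HEK293T cells, captured and sequenced from stranded poly(A) libraries, with total RNA also taken for MITO. The authors deposited whole-number read counts per gene, with log2 fold changes and p-values of their own comparisons beside them; the deposited log2 and p-value columns were not used here. Per the submitters' processing notes Trimmomatic, STAR, SAMtools, HTSeq, bedtools and DESeq2 were used with GRCh38 or hg38; their versions, and whether counting used strand, are not given in the sources used here.

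Counts of each table were fitted with edgeR 4.0.16 in R 4.3.3 (limma 3.58.1): TMM factors, filterByExpr by group, trended dispersion, 1 mean a group, the quasi-likelihood F test and Benjamini-Hochberg adjustment over all genes tested (22680 constructs, 21441 drugs, 22078 drugs joined with untreated OMM and NES, 19611 nocodazole, 14911 MITO, 19115 fractions). Standard errors were taken as the absolute log2 fold change divided by the root of F. Comparisons of constructs or drugs are differences of labelled over unlabelled fold changes. For nocodazole, every time used the average of the 3 and 30 min unlabelled groups as control. Runs without a library kept the dispersion trend of the whole table, and a lone sample is assumed to vary like the other groups. The procedure was tested on simulated data.

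The fits were repeated with DESeq2 1.42.0, with RLE size factors, without the filter, with the replicate number as a block, on other sets of libraries and without each library. Labelled libraries alone, NES controls for OMM and a crossed block for MITO were chosen after seeing the data. The members and lists were chosen with earlier results of these data known. All 34 members are named; each role has up to 3 members with the smallest p between ERM and NES and the member with the largest p given in every library, and drugs, nocodazole and fractions up to 3 called members. Coding sequences were read from GENCODE 29 on GRCh38, 1 transcript a gene, and hydropathy was averaged over 19 codons with a threshold of 1.6. Intervals and standard errors cover these libraries alone. Of the other genes of both pathways, 2 that the rule would name are not reported here.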

Additional observations from a re-analysis of the deposited data

Results flagged for a closer look

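Differences between constructs or drugs that passed a test of the difference itself are collected here, without an explanation. The share of all genes called stands with each comparison above. Between ERM and NES labelling 10 members differed. ACSL3 (2.89), ELOVL5 (2.45) and MSMO1 (2.21) were called higher at the ERM and lower in the cytosol, each against its own control. Their falls in the cytosol lost the call without NES labelled 2 or without NES unlabelled 1, and not all of them kept it without NES labelled 1. Fitted on the NES libraries alone, NES labelling called 0 members. MSMO1 also lost its call at the ERM without any single ERM library. Between OMM and NES labelling 9 members differed, of which ELOVL5 (2.09) was called higher at the OMM and, by that same fall, lower in the cytosol. Between ERM and OMM labelling 3 members differed.

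With cycloheximide 17 members differed between OMM and NES. ACSL3 (1.96) and DHCR7 (2.68) were called higher at the OMM and lower in the cytosol, and ACLY (-1.37) was called lower at the OMM and higher in the cytosol. Between cycloheximide and puromycin at the OMM 11 members differed, and the soluble enzymes ACLY (-1.18) and FASN (-1.81) were called lower with cycloheximide and higher with puromycin. Both falls with cycloheximide, that of ACLY also used above, rest on controls of low complexity. They lost the call with the NES unlabelled libraries as control. With puromycin at the OMM 0 members were called without labelled 2 and 1 without any other single library. With nocodazole 5 members differed between OMM and NES, of which DHCR7 (1.58) was called in opposite directions. Set against untreated OMM cells, 2 members differed with cycloheximide and 2 with puromycin, across tables deposited separately.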

How the results depend on the processing

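Over all alternatives 2143 of 2595 recomputed calls of members kept their direction and call, 451 lost the call and 1 reversed: MVD with cycloheximide at the OMM had -0.36 against NES controls. Counts of members called stayed within 1.5 times in 320 of 449 recomputations. There the other 6 constructs and MITO total RNA enter as 1 summed count, which can hide changes in a single one: fitted on its own libraries NLS had 10 calls (2), NIK 0 (3) and MITO total RNA 0 (1). All groups hold 2 libraries, so single libraries of low complexity weigh heavily, and the cause of each change below was not tested. With DESeq2 the counts were 10 for NES labelling (5 by edgeR), 6 for ERM against OMM (3), 13 and 8 for CCCP at OMM and NES (8, 3), 1 for OMM against NES in CCCP (0), 2 for cycloheximide against puromycin at NES (0), 6, 6 and 2 for cycloheximide, puromycin and CCCP against untreated (2, 2, 0), 8 for OMM against NES in nocodazole (5), 2 for late against early nocodazole at the OMM (1), 15, 10 and 5 for unlabelled cycloheximide, CCCP and nocodazole (8, 4, 1), and 24 for the other 6 constructs with MITO total RNA (13). With RLE size factors unlabelled nocodazole had 0. With no filter the counts were 1 for OMM against NES in puromycin, 7 for NES in CCCP, 13 and 7 for unlabelled cycloheximide and CCCP, 1 for CCCP against untreated, 3 for NES in nocodazole (6), 2 for late against early at the OMM, 1 for that change against NES (0) and 11 for the fractions (17).

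Fitting only the libraries of a comparison gave 0 for NES labelling, 2 for OMM against NES (9), 0 for ERM against OMM, 10, 5 and 7 for cycloheximide at OMM, at NES and between them (19, 13, 17), 9 and 7 for puromycin at OMM and NES (5, 4), 9 for NES in CCCP, 0 for each of the unlabelled comparisons, 1 and 1 for cycloheximide and puromycin against untreated, and 8 and 4 for late against early nocodazole at OMM and NES (1, 0). With the unlabelled libraries of all 9 constructs as control the counts were 21 for ERM (13), 14 for OMM (9), 9 for NES, 16 for ERM against NES (10) and 14 for OMM against NES, and the spanning median at the OMM exceeded the soluble one by 1.30 (0.776). Without the libraries of low complexity they were 1 for NES labelling, 4 for OMM against NES, 1 for NES in puromycin, 1 for puromycin against untreated, 3 for NES in nocodazole and 0 for late against early nocodazole, and that excess was 1.34 for OMM and 1.076 for OMM against NES (1.53). With labelled libraries alone, chosen after seeing the data, they were 1, 1, 19 and 14 for OMM against NES in puromycin and in CCCP, cycloheximide against puromycin and OMM against NES in nocodazole.

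With each library left out the counts ran from 0 to 9 for NES labelling, 5 to 11 for OMM against NES, 0 to 3 for ERM against OMM, 0 to 1 and 1 to 5 for puromycin at OMM and NES, 0 to 1 for OMM against NES in puromycin, 3 to 6 for CCCP at the OMM, 8 to 20 and 0 to 1 for cycloheximide against puromycin at OMM and NES, 1 to 9, 1 to 6 and 0 to 1 for cycloheximide, puromycin and CCCP against untreated, 2 to 9 for NES in nocodazole, 5 to 11 for OMM against NES in nocodazole, 0 to 1 for late against early at the OMM, and 3 to 17, 2 to 16 and 0 to 8 for unlabelled cycloheximide, CCCP and nocodazole. The excess of the spanning median ran from 0.413 to 1.34 for OMM, 1.98 to 2.73 for ERM against NES and 1.07 to 1.61 for OMM against NES.

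Replicate numbers were not taken as pairs, since over 21 pairs of groups the deviations of same-numbered libraries correlated at -0.16 to 0.154 (median -0.008), with 1 above 0.1. With the replicate block 197 of 201 calls held, puromycin against untreated had 1 call (2) and unlabelled nocodazole 0 (1). With the MITO numbers crossed in the block 2 members were called, as without it.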

Other observations

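Unlabelled libraries, which hold the background of the capture, also differed between treatments. Between cycloheximide and puromycin, over both constructs, 3 members were higher and 5 lower, where 8.25 percent of genes were called. MVD (-1.61 ± 0.27), DHCR7 (-0.86 ± 0.15) and HMGCS1 (-0.63 ± 0.12) were lower with cycloheximide in every run without a library. Such runs never remove both OMM cycloheximide unlabelled libraries, which are of low complexity, as is NES puromycin unlabelled 2. Fitted on only the libraries of this comparison, 0 members and 0 of 17321 genes were called. HMGCS1 had 97.02 and 68.5 normalised CPM in OMM and 101 and 92.4 in NES cells with cycloheximide, against 160 and 133 in OMM and 127 and 135 in NES cells with puromycin. The count was 17 without OMM cycloheximide unlabelled 1, 4 without OMM puromycin unlabelled 1 and 3 without OMM puromycin unlabelled 2.

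CCCP against the mean of the translation inhibitors called 3 members higher and 1 lower, where 3.4 percent of genes were called. HMGCS1 (0.72 ± 0.10) and INSIG1 (0.69 ± 0.12) were higher in every run without a library. The same libraries of low complexity enter here, and fitted on only the libraries of this comparison 0 members were called. INSIG1 had 272 and 275 normalised CPM in OMM and 216 and 212 in NES cells with CCCP, against 95.7 to 201 with cycloheximide and 171 to 184 with puromycin. IDI1 (0.54 ± 0.15) was higher and ELOVL6 (-0.71 ± 0.17) lower, and both calls were lost without some libraries. The count was 16 without OMM cycloheximide unlabelled 1, 8 without OMM cycloheximide unlabelled 2 and 7 without NES puromycin unlabelled 1, and it was 2 without OMM CCCP unlabelled 1, NES CCCP unlabelled 2, OMM puromycin unlabelled 1 or OMM puromycin unlabelled 2. Between 30 and 3 min of nocodazole ACSL4 was higher (1.00 ± 0.28), where 3.37 percent of genes were called, a call lost without 3 of 8 libraries. Leaving out libraries gave 0 calls without NES 3 min 2, NES 30 min 2 or OMM 30 min 2, and 3, 4, 5, 7 and 8 calls without NES 3 min 1, OMM 3 min 2, NES 30 min 1, OMM 3 min 1 and OMM 30 min 1.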
